A study of Ovis aries with 6 samples.

Results

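The genes described here make NAD, pass its electrons to NADP or use it to remove acyl groups from proteins. They were defined by 10 gene names, NMNAT1, NMNAT2, NMNAT3, NAMPT, NADSYN1, NMRK1, NNT, SIRT1, SIRT3 and SIRT5, in a table of 23144 gene rows. Of these names, 9 were found as row names. NAMPT has no row of that name and is listed as LOC780506, a row whose own BLAST column reads NAMPT and whose number is the RefSeq gene ID of NAMPT. With that row, all 10 genes had reads in every library and passed the filter for low counts. RNA came from the longissimus dorsi, the long muscle of the back, of females aged 1 year, with 1 library per animal. The animals shared an environment, and the study names no treatment other than a fast before the weighing that preceded slaughter. The Qianhua Mutton Merino (QHMM, 3 animals) is kept for mutton and wool, and the Small Tail Han (STH, 3 animals) is an older local breed. The comparison is STH vs. QHMM throughout. Library totals over genes ranged from 10982191 to 14334544 reads.

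NAD carries electrons in glycolysis, the citrate cycle and the respiratory chain, and sirtuins and poly(ADP-ribose) polymerases consume it as a substrate. It is rebuilt from nicotinamide by NAMPT, from nicotinamide riboside by the kinases NMRK1 and NMRK2, and from nicotinic acid or tryptophan by routes that end at NADSYN1. The routes from nicotinamide and nicotinamide riboside meet at nicotinamide mononucleotide. The enzymes NMNAT1 in the nucleus, NMNAT2 on cytosolic membranes and NMNAT3 in mitochondria turn it into NAD. In muscle, NAD is used heavily by oxidative metabolism and by the mitochondrial sirtuins.

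Markers of skeletal muscle were abundant. The summed level of 6 fast-fibre genes was 24833.5 to 36075.6 RPKM (read counts scaled by gene length and library total) and that of 7 slow-fibre genes 7090.8 to 22910.9 RPKM. TNNT3, a fast-fibre gene, was listed at 0 in all libraries. The summed level of 8 neuronal genes was 3.09 to 9.21 RPKM, and without UCHL1 it was 0.189 to 1.16 RPKM. Slow-fibre genes differed between the breeds, with 4 of 7 called lower in STH and a summed level of 7090.8 to 10860.3 RPKM in STH and 16082.9 to 22910.9 in QHMM. Among adipocyte markers 4 of 5 were called lower in STH, with summed levels of 40.3 to 129 RPKM in STH and 59.2 to 276 in QHMM. None of the tested markers of fast fibres (5 genes), mitochondria (7), nerve (1), Schwann cells (6), blood or immune cells (4), endothelium (4) or fibroblasts (5) was called by edgeR at an FDR below 0.05; of these, 1 fast-fibre, 1 mitochondrial and 2 fibroblast genes had an unadjusted p below 0.05. The part of these marker differences in the results below was not tested, and in whole tissue fewer cells of a type and less RNA per cell cannot be told apart.

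None of the 10 genes passed the thresholds (FDR below 0.05 over 12506 tested genes, at least a 1.5-fold change) with edgeR's quasi-likelihood F test, where 3.45% of all tested genes did, 1.62% higher and 1.83% lower in STH. NMNAT2, NMNAT3 and NAMPT had an unadjusted p below 0.05, that is 3 of 10 genes against 19.2% of all tested genes. The same 3 genes were those in which the libraries of the breeds did not overlap in normalised read count, against 24.7% of all tested genes. STH lay above QHMM in NAMPT (13% of all genes) and below it in NMNAT2 and NMNAT3 (11.7%). The shares of 3 in 10 are near those over all genes. With DESeq2 in place of edgeR, which called 7.95% of genes, all 3 were called. On simulated counts 19.9% of the calls of DESeq2 were false, against 7.69% of those of edgeR. There 98 of 12342 tested genes were changed 2-fold and 97 were changed 4-fold. A false share depends on how many genes are changed, so these values are not the false shares of the calls in these data. Without the filter for low counts edgeR called 4.56% of genes, NMNAT2 and NAMPT among them, and without STH replicate 1 it called 4.21%, NMNAT2 and NMNAT3 among them. None of the 10 was called without QHMM replicate 1 (1.03% of all genes called), 2 (1.61%) or 3 (1.17%) or without STH replicate 2 (1.42%) or 3 (2.56%), nor with replicate number as a block (3.65%) or by limma-trend on unfiltered RPKM (0.442%). The median log2 fold change of the 10 genes was -0.17, and that of all tested genes 0.02.

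**Figure D1:**
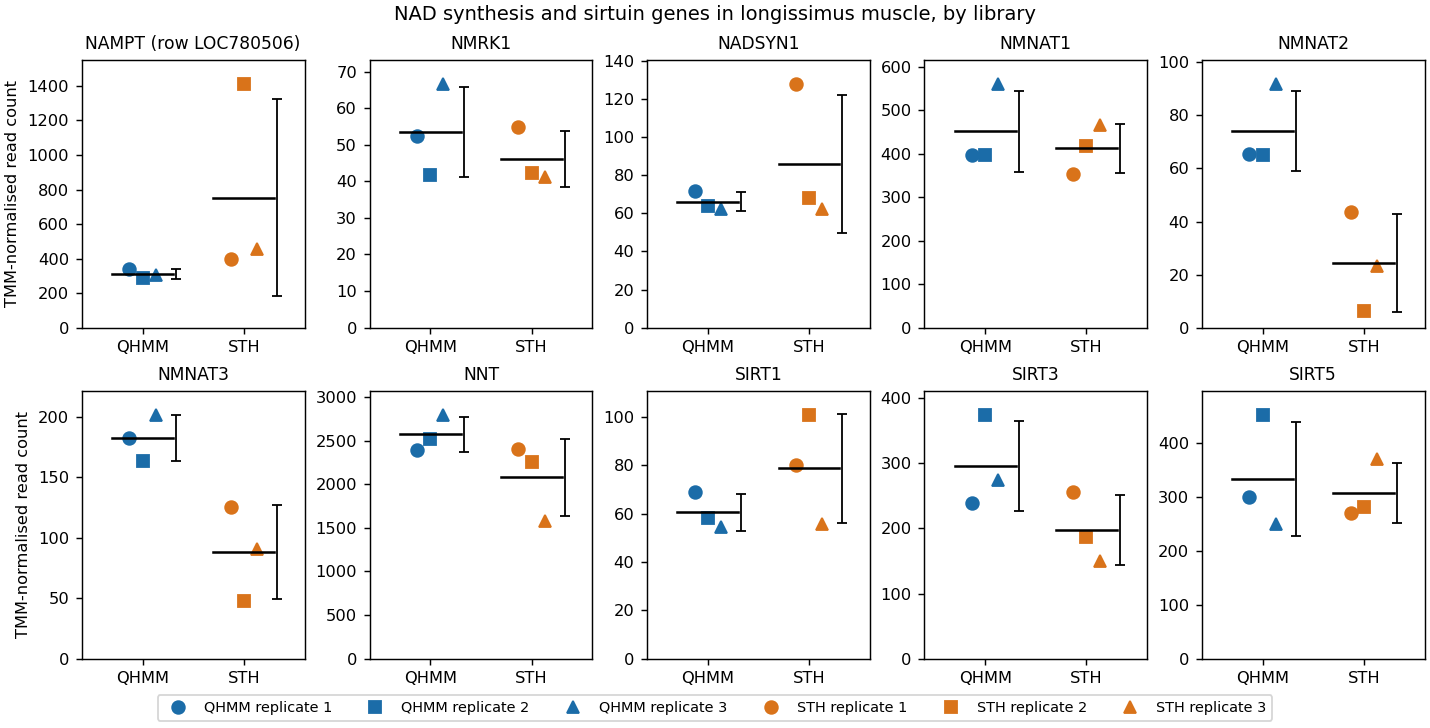
Normalised read counts (edgeR TMM, linear axes from 0) of the 10 genes in each QHMM and STH library; horizontal lines are means and the bars beside them SDs (n = 3). The STH libraries lie below the QHMM libraries for NMNAT2 and NMNAT3 and above them for NAMPT, with STH replicate 2 farthest away in all 3.

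NAMPT, the rate-limiting enzyme of salvage from nicotinamide, had 338, 286 and 307 normalised read counts in the QHMM libraries (replicates 1 to 3 in order, here and later), against 398, 1409 and 455 for STH. All STH libraries lay above all QHMM libraries, but replicates 1 and 3 of STH only slightly, and STH replicate 2 stood far above the rest. The means were 310 ± 26.5 in QHMM and 754 ± 568 in STH (SD, n = 3 each), with a log2 fold change of 1.28 (SE 0.42, 95% interval 0.34 to 2.21, edgeR FDR = 0.129). Without STH replicate 2 it was 0.44 (SE 0.23, edgeR FDR = 0.466). The deposited count of that library, 1329 reads, has a 95% Poisson interval of 1258.5 to 1402.4, which covers counting error only. Rows described as NAMPT-like or NMNAT1-like copies held 0 reads.

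NMRK1, a kinase of nicotinamide riboside, had 52.3, 41.8 and 66.5 normalised read counts in QHMM and 54.9, 42.4 and 41.1 in STH. The breeds overlapped, with a log2 fold change of -0.21 (SE 0.31, 95% interval -0.90 to 0.47, edgeR FDR = 0.763). NADSYN1, the amidating enzyme that ends the routes from nicotinic acid and tryptophan, had 71.8, 63.9 and 62.5 in QHMM and 128, 67.9 and 62.2 in STH. STH replicate 1 alone was high, and the other 5 libraries lay within 62.2 to 71.8. The log2 fold change of NADSYN1 was 0.39 (SE 0.32, 95% interval -0.33 to 1.1, edgeR FDR = 0.563), and -0.04 without STH replicate 1.

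Within a library, the RPKM of NAMPT was 1.54, 1.62 and 1.1 times that of NMRK1 in the QHMM libraries and 1.72, 7.90 and 2.63 times in STH. The ratio was thus higher in each STH library, although STH replicate 1 and QHMM replicate 2 were close. The log2 ratio was 0.486 ± 0.306 in QHMM and 1.72 ± 1.13 in STH (SD, n = 3 each), a difference of 1.23 (exact permutation test, two-sided, p = 0.1, adjusted p = 0.2 over 4 such tests). With 3 animals against 3, 0.1 is the smallest p this test can give. The second riboside kinase, NMRK2, known as the muscle form, was picked out after its values were seen. Its level of 59.5 to 318 RPKM was 19.6 to 140 times that of NMRK1, so that NMRK1 was the minor riboside kinase transcript in every library. NMRK2 was lowest in STH replicate 2, at 59.5 RPKM, where NAMPT was highest, and NMRK2 exceeded NAMPT 2.48-fold there and 38.9-fold to 56.7-fold in the other libraries.

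NMNAT1, the nuclear enzyme, had 398, 397 and 559 normalised read counts in QHMM and 354, 417 and 466 in STH. The breeds overlapped, and the log2 fold change was -0.13 (SE 0.23, 95% interval -0.63 to 0.37, edgeR FDR = 0.802).

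NMNAT2, best known from axons, had 65.6, 65.0 and 91.7 normalised read counts in the QHMM libraries, against 43.4, 6.36 and 23.3 for STH. All STH libraries lay below all QHMM libraries, and they differed more among themselves than the QHMM libraries did. The means were 74.1 ± 15.2 and 24.4 ± 18.5 (SD, n = 3 each), a log2 fold change of -1.57 (SE 0.51, 95% interval -2.70 to -0.44, edgeR FDR = 0.122). The fitted level in QHMM was 2.97 times that in STH. NMNAT2 rested on few reads. In STH replicate 2 it had 6 reads, with a 95% Poisson interval of 2.2 to 13.1, and in STH replicate 3 it had 21 (13 to 32.1). Of the 8 neuronal markers, GAP43 and SYT1 were at 0 in all libraries, and only UCHL1 passed the filter for low counts, with a log2 fold change of -0.74 (SE 0.49, edgeR FDR = 0.450). Summed without UCHL1, the neuronal genes overlapped, at 0.189 to 0.781 RPKM in QHMM and 0.221 to 1.16 in STH. That sum was highest in STH replicate 2, where NMNAT2 was lowest.

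NMNAT3, the mitochondrial enzyme, had 182, 164 and 201 normalised read counts in QHMM and 125, 47.7 and 91.1 in STH. The order of the 6 libraries was the same as for NMNAT2, with QHMM replicate 3 highest and STH replicate 2 lowest. The means were 183 ± 18.9 and 88.1 ± 38.9 (SD, n = 3 each), and the log2 fold change was -1.05 (SE 0.33, 95% interval -1.77 to -0.32, edgeR FDR = 0.113). The study itself, with another test, EBSeq, listed NMNAT3 as lower in STH. By qRT-PCR on the same RNA samples it also reported NMNAT3 as significantly lower in STH. In RPKM, which carries no correction for library composition, the breeds overlapped for NMNAT3, with 14.3 RPKM in QHMM replicate 2 and 15.4 RPKM in STH replicate 1. Without STH replicate 1, NMNAT2 and NMNAT3 were called, at log2 fold changes of -2.33 (edgeR FDR = 0.0356) and -1.41 (edgeR FDR = 0.0476). Without STH replicate 2 their log2 fold changes were -1.15 (edgeR FDR = 0.198) and -0.77 (edgeR FDR = 0.239).

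**Figure D2:**
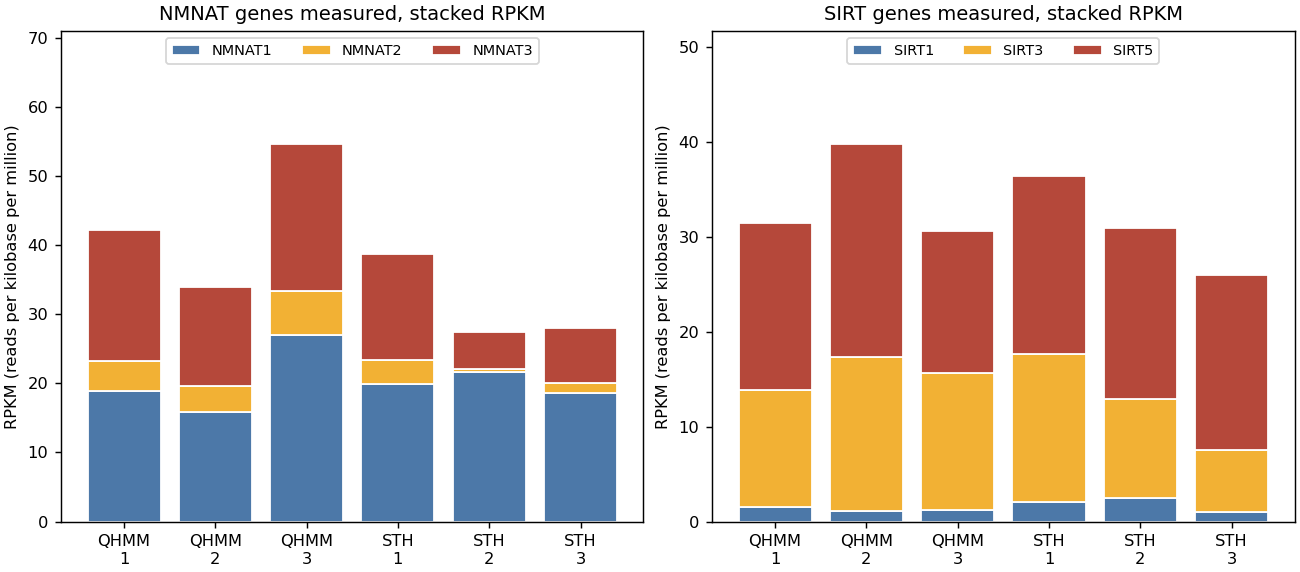
RPKM of the 3 NMNAT genes (left) and of SIRT1, SIRT3 and SIRT5 (right), stacked for each library. NMNAT1 makes up 44.8% to 49.6% of the NMNAT total in QHMM and 51.4% to 78.7% in STH, and SIRT1 is the smallest band of its stack in each library.

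Summed over the 3 genes, NMNAT levels were 42.2, 33.9 and 54.6 RPKM in QHMM and 38.7, 27.5 and 28.0 in STH. The share of NMNAT1 was 44.8%, 47.0% and 49.6% in QHMM and 51.4%, 78.7% and 66.8% in STH. NMNAT3 made up 44.8%, 42.2% and 39.0% in QHMM and 39.7%, 19.7% and 28.5% in STH. The share of NMNAT1 was thus level with that of NMNAT3 in QHMM replicate 1 and exceeded it in the other libraries. Its lead in STH replicate 1 was close to that in QHMM replicate 3, and it was widest in STH replicates 2 and 3. The mean share of NMNAT3 differed by -12.7 percentage points in STH vs. QHMM (exact permutation test, two-sided, p = 0.2, adjusted p = 0.267). NMNAT2 held 10.4%, 10.8% and 11.4% in QHMM and 8.87%, 1.69% and 4.71% in STH. Its share was 10.9 ± 0.529% in QHMM and 5.09 ± 3.61% in STH (SD, n = 3 each; exact permutation test, two-sided, p = 0.1, adjusted p = 0.2).

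NNT, which uses the proton gradient of mitochondria to reduce NADP with NADH, had the highest level per length of the 10 genes, 23.9 to 51.1 RPKM. The QHMM libraries had 2397, 2521 and 2789 normalised read counts and the STH libraries 2400, 2258 and 1577. STH replicate 1 lay level with QHMM replicate 1, STH replicate 3 was lowest, and the log2 fold change was -0.31 (SE 0.24, 95% interval -0.83 to 0.22, edgeR FDR = 0.528). Of 7 genes of mitochondrial content, 0 were called, where 3.45% of all tested genes were. The breeds overlapped in 5 of the 7 and did not in 2, where 24.7% of all tested genes did not. These 7 genes had log2 fold changes from -0.89 to 0.24, 6 of them negative. Their summed level was 2017.7 to 2521.9 RPKM in STH and 2551.1 to 2854.2 in QHMM, and its part in the values of NNT, NMNAT3 and SIRT3 was not tested.

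Of the sirtuins, SIRT1, a nuclear deacetylase, had 69.1, 58.1 and 54.4 normalised read counts in QHMM and 80.3, 101 and 55.6 in STH. STH replicates 1 and 2 were above all QHMM libraries and replicate 3 was among them, with a log2 fold change of 0.38 (SE 0.30, 95% interval -0.28 to 1.04, edgeR FDR = 0.534). SIRT3, the main deacetylase of mitochondria, had 239, 374 and 275 in QHMM and 255, 187 and 150 in STH. Only STH replicate 1 lay within the QHMM range, and the log2 fold change was -0.58 (SE 0.27, 95% interval -1.18 to 0.02, edgeR FDR = 0.275). SIRT5, which removes succinyl and malonyl groups in mitochondria, had 299, 452 and 250 in QHMM and 269, 281 and 371 in STH. The breeds overlapped fully, with a log2 fold change of -0.12 (SE 0.26, 95% interval -0.70 to 0.47, edgeR FDR = 0.853) that was 0.16 without QHMM replicate 2. SIRT1 made up 4.86%, 2.72% and 4.0% of the RPKM of these 3 sirtuins in QHMM and 5.76%, 7.85% and 3.99% in STH, a difference of 2.01 percentage points (exact permutation test, two-sided, p = 0.3, adjusted p = 0.3). SIRT3 and SIRT5 together thus made up most of the total of these 3 genes in each library. That total leaves out SIRT2, which was added for its level. At 141 to 183 RPKM, SIRT2 lay above each of these 3 genes in every library, the highest value among them being 22.4 RPKM for SIRT5.

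**Figure D3:**
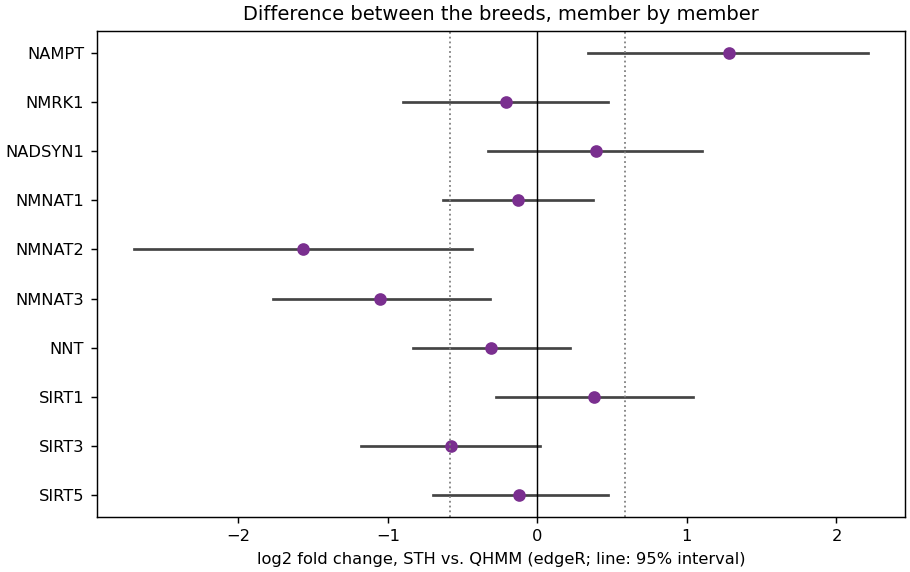
The log2 fold change of each gene in STH vs. QHMM (point) with its 95% interval (line) from edgeR; dotted lines mark a 1.5-fold change in either direction. The intervals of NAMPT (0.34 to 2.21), NMNAT2 (-2.70 to -0.44) and NMNAT3 (-1.77 to -0.32) lie to one side of 0, before adjustment over all genes.

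Ordered by mean RPKM over the 6 libraries, the genes were NNT (41.9 ± 10.1), NMNAT1 (20.3 ± 3.78), SIRT5 (18.4 ± 2.40), NMNAT3 (13.9 ± 6.16), SIRT3 (12.6 ± 3.66), NAMPT (8.54 ± 7.66), NMRK1 (3.29 ± 0.932), NMNAT2 (3.25 ± 2.10), NADSYN1 (2.82 ± 1.34) and SIRT1 (1.57 ± 0.577; SD, n = 6). NNT exceeded NMNAT1, NAMPT exceeded NMRK1 and NADSYN1 exceeded SIRT1 in 6 of 6 libraries. The other neighbours changed places in at least 1 library. NMNAT3 exceeded SIRT3 in 3 of 6 libraries, of both breeds, and the spread did not separate this pair. NMNAT2 was above both NMRK1 and NADSYN1 in each QHMM library (3.67 to 6.24 RPKM) and below both in each STH library (0.464 to 3.44 RPKM), so its place in the order differed by breed.

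The genes nearest in pattern to NMNAT2, NMNAT3 and NAMPT were sought among 11258 other tested genes with a mean of at least 20 normalised counts. Nearness was the root mean square difference of centred log2 counts, scaled by library size, over the 6 libraries. For NMNAT2 these were KERA (0.17), POPDC2 (0.24) and LRRC14B (0.29), where the median over all candidates was 1.22. For NMNAT3 they were DAGLA (0.03), CCDC8 (0.10) and THY1 (0.12), against a median of 0.78, and NMNAT2 itself was at 0.48. RSL1D1 (0.11), LOC101115614 (0.11) and RIOK1 (0.12) were nearest to NAMPT, against 0.83. In each of these genes STH replicate 2 was the extreme library, as it was in its NAD gene, and edgeR called none of the 9. With 6 libraries and this many candidates, close matches are common, and they are given as a description only. STH replicate 2 was the highest or lowest library in 4 of the 10 NAD and sirtuin genes and in 44.0% of all tested genes. It was highest in NAMPT and SIRT1 (22.8% of all genes) and lowest in NMNAT2 and NMNAT3 (21.2%).

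**Figure D4:**
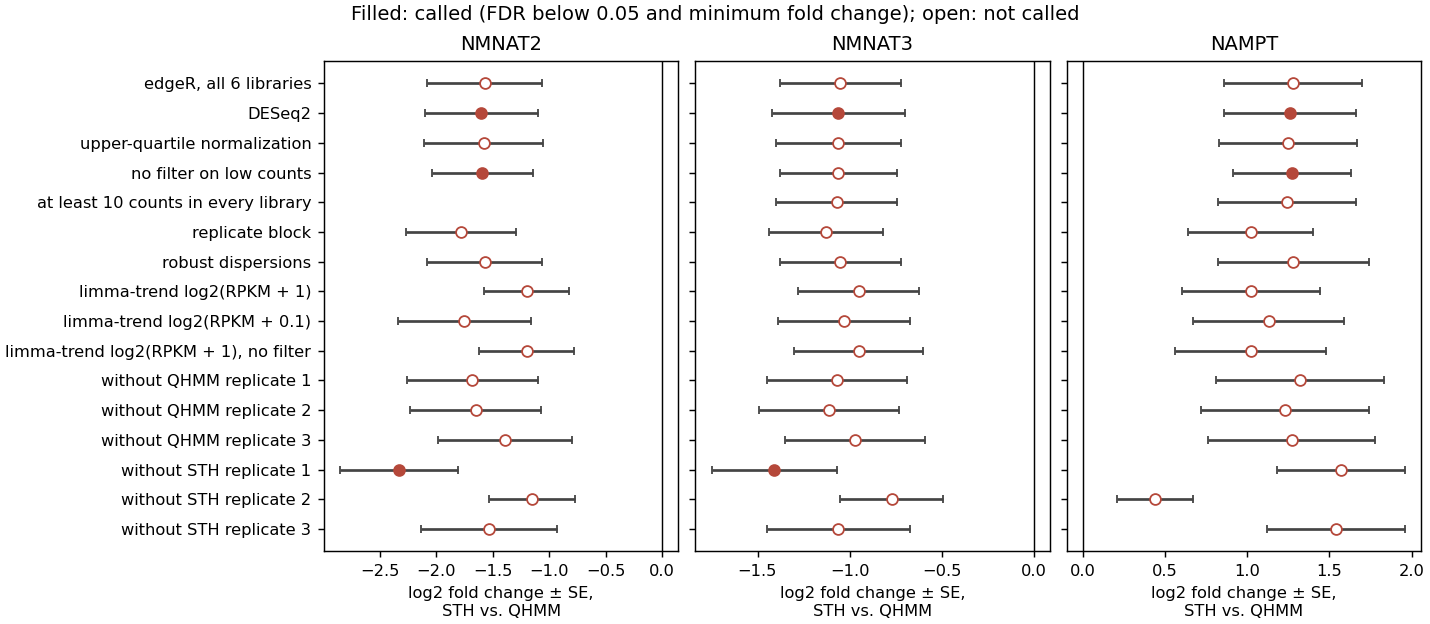
The log2 fold change ± SE of NMNAT2, NMNAT3 and NAMPT in STH vs. QHMM under each alternative and with each library left out; filled points were called. NMNAT2 has no value with at least 10 counts required in every library, and NAMPT is closest to 0, at 0.44, without STH replicate 2.

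Other genes around NAD were taken from 8 lists written from general knowledge, in which 56 different genes were tested and 7 were called by edgeR (12.5%), 4 higher and 3 lower in STH, where 3.45% of all tested genes were called, 1.62% higher and 1.83% lower. The lists were chosen with earlier results known, so nothing is read from that share. In the route from tryptophan 2 of 9 genes passed the filter for low counts, and 0 were called. AFMID, which hydrolyses formylkynurenine, was at 7.34 ± 5.88 normalised counts in QHMM and 30.7 ± 7.24 in STH (log2 fold change 2.04, SE 0.55, edgeR FDR = 0.0706; unadjusted p below 0.05 in 1 gene of this list). It was called without QHMM replicate 3 (2.91, edgeR FDR = 0.0499), by DESeq2 (DESeq2 FDR = 0.0184) and without the filter for low counts (edgeR FDR = 0.0372). IDO1, which opens that route, had a log2 fold change of 0.01 (SE 0.63) whose sign depended on the processing. Among 7 tested genes of other salvage steps, NAD kinases and transport, 0 were called and 0 had an unadjusted p below 0.05, and the largest absolute log2 fold change was 0.28, of the mitochondrial NAD kinase NADK2 (listed as NADKD1). The others named by rule there were NUDT12 with 0.27 and NT5E with 0.17. Among the other 4 sirtuins 0 were called and 0 had an unadjusted p below 0.05, with log2 fold changes of 0.57 for SIRT7, -0.60 for SIRT6 and 0.24 for SIRT4 (edgeR FDR from 0.329 to 0.778).

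Of 11 tested genes listed as NAD consumers other than sirtuins, 1 was called. Whether each of them, ART3 included, consumes NAD was not measured. PARP3, a mono-ADP-ribosyltransferase of DNA repair, had 32.8, 82.5 and 104 normalised counts in QHMM and 411, 239 and 196 in STH. It rose with a log2 fold change of 1.96 (SE 0.42, edgeR FDR = 0.0352), a call that was lost without any 1 of the QHMM libraries and without STH replicate 1 or 2 (1.56 to 2.31). ART3 (1.33, SE 0.35, edgeR FDR = 0.0682) and BST1 (-1.57, SE 0.67, edgeR FDR = 0.231) were not called. ART3 was called without STH replicate 1 (1.53, edgeR FDR = 0.0397) and was at 0.75 without STH replicate 2 (edgeR FDR = 0.180). DESeq2 (DESeq2 FDR = 0.00574) and edgeR without the filter for low counts (edgeR FDR = 0.0192) also called ART3. BST1 was called without STH replicate 3 (-3.13, edgeR FDR = 0.0186). The other mitochondrial sources of NADPH beside NNT, 5 genes, were not called either. In normalised counts all 3 STH libraries lay below all QHMM libraries in IDH2 (log2 fold change -0.63), MTHFD2L (-1.19) and GLUD1 (-0.15, listed as LOC443239), as they did in 11.7% of all tested genes, with an edgeR FDR from 0.178 to 0.727 and an unadjusted p below 0.05 in the first and the second. In RPKM the breeds overlapped for GLUD1.

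Among 9 tested genes whose proteins are known sirtuin substrates, FOXO1 and FOXO3 were called. FOXO1, a transcription factor of fasting and atrophy, rose from 203 ± 64.7 to 1718 ± 713 normalised counts (SD, n = 3 each), with a log2 fold change of 3.08 (SE 0.37, edgeR FDR = 0.0045). FOXO3 rose from 291 ± 29.7 to 1322 ± 584, with 2.18 (SE 0.34, edgeR FDR = 0.0114), and both were called in all 6 fits that left out 1 library. Mitochondrial superoxide dismutase, SOD2, listed as LOC780457, had a log2 fold change of -0.93 (SE 0.23, edgeR FDR = 0.0528). It was not called in that fit. DESeq2 called it (DESeq2 FDR = 0.00537). So did edgeR without the filter for low counts (0.0352), with at least 10 counts in every library (0.0430) and with robust dispersions (0.0452). In the edgeR fit that called FOXO1 and FOXO3 above, SIRT1 and SIRT3, whose protein products act on these substrates, were not called.

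Of 9 tested genes that use NADH in the cytosol or carry its electrons into mitochondria, 3 were called. GPD1 and GPD2 are the cytosolic and the mitochondrial enzyme of the glycerol phosphate shuttle. GPD1 fell from 18915 ± 3892 to 6129 ± 1186 normalised counts (log2 fold change -1.63, SE 0.27, edgeR FDR = 0.0141, and -1.52 and not called without STH replicate 2), while GPD2, listed as LOC443090, rose from 513 ± 72.0 to 1489 ± 592 (1.54, SE 0.30, edgeR FDR = 0.0236). The call of GPD2 was lost without any 1 of the QHMM libraries and without STH replicate 2 (1.18 to 1.64). LDHB fell with -0.95 (SE 0.22, edgeR FDR = 0.0459), a call that held with 1 library left out only where that was STH replicate 1 (-1.11 to -0.86 over the 6 fits). The list's median was -0.73, beside 0.02 over all tested genes.

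The circadian clock drives NAMPT transcription, and SIRT1 acts back on the clock. Of 11 tested clock genes, 1 was called, the repressor CRY2, which fell from 457 ± 106 to 215 ± 53.6 normalised counts (log2 fold change -1.09, SE 0.26, edgeR FDR = 0.0487). With 1 library left out the call held only without STH replicate 1 (-1.32 to -0.89 over the 6 fits). PER1 (1.33, SE 0.34, edgeR FDR = 0.0595) and NR1D2 (1.0, SE 0.28, edgeR FDR = 0.0826) were not called, and PER2 had no reads. DESeq2 and edgeR without the filter for low counts called CRY2, PER1 and NR1D2. Limma-trend on filtered RPKM called PER1 but not CRY2, and edgeR with upper-quartile normalization did not call CRY2 (edgeR FDR = 0.0557). Among the STH libraries, PER1 was highest in replicate 3, with 2234 normalised counts, and NR1D2 in replicate 2, with 1842, the library in which NAMPT was highest.

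**Figure D5:**
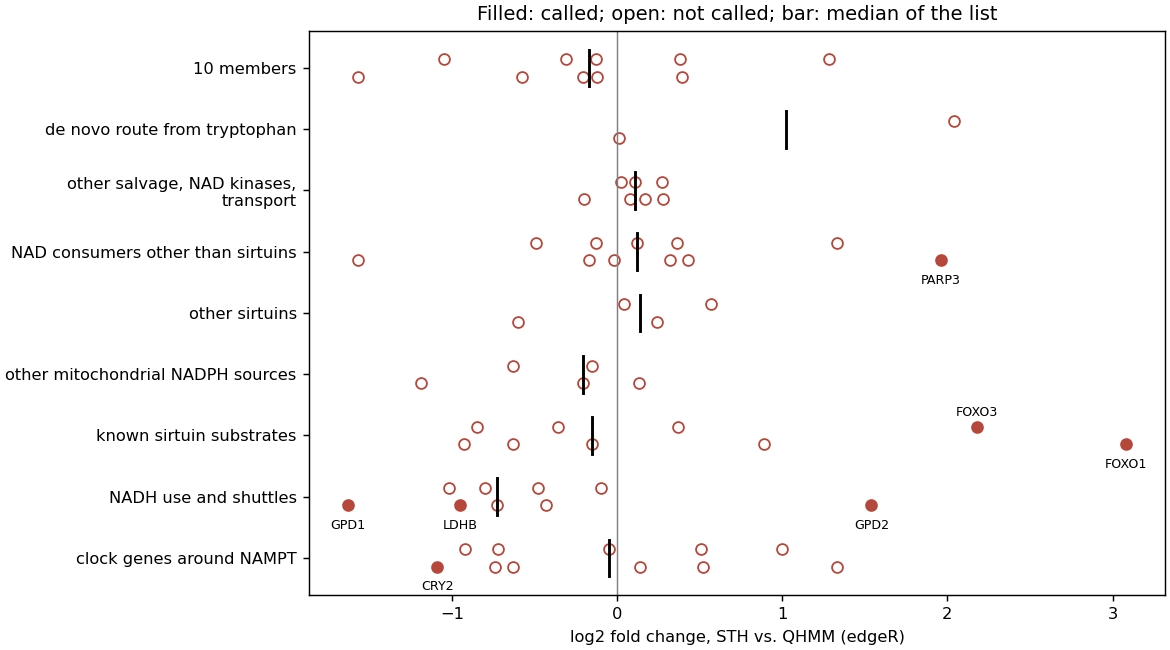
The log2 fold change in STH vs. QHMM of the 10 genes (top) and of the tested genes of the 8 lists; filled points were called and are named, and the vertical bar is the list's median. The largest values belong to FOXO1 and FOXO3, and none of the 10 genes is filled.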

How the data were processed

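The authors filtered the Ion Proton reads, mapped them to the sheep genome (Oar 3.1) and deposited unique mapped reads per gene as counts, without normalization, and as RPKM values, whose ratio to the counts fits scaling by gene length and library total. The study's methods also name an upper-quartile correction. The aligner, counter and annotation release were not given in the sources used here, and it is not known whether counting used strand. Coordinates are not printed because the reference table has another assembly. Counts were tested in R 4.3.3 with edgeR 4.0.16 (TMM, filterByExpr, glmQLFTest, breed as the only term) and Benjamini-Hochberg adjustment over 12506 genes. EBSeq, which the study's methods name, was not installed. Alternatives used DESeq2 1.42.0 and limma 3.58.1. Intervals are 95%. The scripts were tested on simulated counts, in which 98 of 12342 genes tested by edgeR and DESeq2 were changed 2-fold and 97 were changed 4-fold. There edgeR recovered 20.4% of 2-fold and 90.7% of 4-fold changes, with 7.69% of its calls false. DESeq2 recovered 30.6% and 93.8%, with 19.9% false. Shares and ratios were compared by exact permutation in SciPy 1.17.1, in Python 3.11.15.

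The genes, lists and tests were chosen with earlier results of these data known. Named were all 10 genes, each list's called genes, filled up to 3 by smallest p, and the 3 genes nearest to NMNAT2, NMNAT3 and NAMPT. NMRK2 and SIRT2 were added for their levels. LOC names were matched by RefSeq gene ID.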

Additional observations from a re-analysis of the deposited data

How the results depend on the processing

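NMNAT2 was limited by its low counts, and it had no value where at least 10 counts were required in every library. Where edgeR called 0 of the 10 genes, DESeq2 called 3 (NMNAT2, NMNAT3 and NAMPT) and edgeR without a filter on low counts called 2 (NMNAT2 and NAMPT). With 1 library left out 0 to 2 were called, the 2 being NMNAT2 and NMNAT3 without STH replicate 1. In the 8 lists edgeR called 7 genes, DESeq2 and the fit with no filter 12 each, and limma-trend on log2(RPKM + 1) with no filter 3. With 1 library left out 2 to 8 were called: 3 without QHMM replicate 1, 3 without QHMM replicate 2, 4 without QHMM replicate 3 and 2 without STH replicate 2. Over all genes the calls numbered 432 in the edgeR fit, 975 with DESeq2, 806 with no filter, 78 with limma-trend with no filter, and 131 to 535 with 1 library left out. The causes were not tested.

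The up-regulated share of calls was 47.0% with edgeR, 61.3% with limma-trend on log2(RPKM + 1), 61.9% with log2(RPKM + 0.1) and 69.2% with no filter. The first and second of these RPKM fits moved the median of all genes to 0.12 and 0.14. SIRT5 changed sign in these 3 fits, to 0.02, 0.03 and 0.02, and stayed below the median of all genes in each, by -0.09, -0.12 and -0.02. IDO1 went to -0.08, -0.31 and -0.08 in them, to -0.03 with DESeq2, to -0.01 with no filter and to -0.33 with the replicate block. With 1 library left out, signs changed in NMNAT1 (-0.24 to 0.05), NADSYN1 (-0.04 to 0.57), SIRT5 (-0.29 to 0.16), IDO1 (-1.05 to 0.48), NMRK2 (-0.80 to 0.24), NT5E (-0.06 to 0.45) and SIRT4 (-0.03 to 0.38). The other 7 of the 10 genes kept their sign in each alternative and each fit without 1 library, and their calls changed only as given above.

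No label says that the replicate numbers mark a pairing or a batch. Same-numbered libraries deviated from their breed means with correlations of 0.23, -0.04 and -0.13 across 12506 genes. For differently numbered libraries the correlations were -0.26 to 0.29. A fit with the replicate block called 0 of the 10 genes, 6 genes of the 8 lists and 457 of all genes. In it the calls of PARP3 (1.97, edgeR FDR = 0.0525), LDHB (-0.95, 0.0619) and CRY2 (-1.09, 0.0508) were lost, and AFMID (2.19, 0.0477) and ART3 (1.21, 0.0436) were called. Within replicate numbers the differences in share and ratio are those of the means, and the exact sign-flip test cannot go below 0.25. The 4 differences in share and ratio kept their sign with counts in place of RPKM for the shares, with 0.1 RPKM added for the ratio, and without each library, where they ranged from -7.68 to -4.09 points for NMNAT2, -17.9 to -7.90 for NMNAT3, 1.02 to 2.95 for SIRT1 and 0.604 to 1.70 for the log2 ratio of NAMPT to NMRK1.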
